A study of Homo sapiens with 6 samples.

Results

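The Hippo pathway genes examined here were 10 rows of a gene count table, found by symbol: the coactivator genes YAP1 and WWTR1, the DNA-binding partner TEAD1, the kinases LATS1 and LATS2, the motin genes AMOTL1 and AMOTL2, the LIM protein gene AJUBA, and the secreted targets CTGF (now CCN2) and CYR61 (now CCN1). All 10 were found among 18544 gene rows and all 10 passed the filter on low counts. The cells were HMEC-1, an endothelial line derived from small vessels of human skin and immortalised, grown in MCDB131 medium with 5.5 mM glucose. Every culture carried a lentivirus: in the group called Set7KD (n = 3) it delivered an shRNA against SETD7, and in the control group called NTC (n = 3) a non-targeting shRNA. The labels give no second shRNA against SETD7, so effects of the construct on other genes cannot be told apart from those of the knockdown.

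In the Hippo pathway, the MST and LATS kinases phosphorylate the coactivators YAP (from YAP1) and TAZ (from WWTR1), which are then held in the cytoplasm or degraded. When the kinases are less active, YAP and TAZ enter the nucleus and bind TEAD proteins, which recognise the word GGAATG. CTGF and CYR61, secreted proteins of the CCN family that act on cell adhesion and vessel growth, are the classical readouts of this activity, while LATS2 and AMOTL2 are targets that also restrain YAP. In endothelium, YAP and TAZ respond to flow and stretch and take part in vessel sprouting. SETD7, a lysine methyltransferase, has been reported to methylate YAP and to favour its retention in the cytoplasm, an effect on the protein that RNA counts do not measure.

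The promoter sequences below carry the TEAD word in capitals, on either strand (GGAATG, or CATTCC on the other strand). They show where it lies in CTGF, AMOTL2, LATS2, AJUBA and YAP1. They are RefSeq windows on GRCh38.p14 of 250 bases before to 50 bases after a gene start, written 5′ to 3′ along the gene, and the build differs from the hg19 build named for the counts. For CTGF all 250 bases before the start are given, and for the others 80 bases around the word.
CTGF, chr6:131951373-131951622, minus strand: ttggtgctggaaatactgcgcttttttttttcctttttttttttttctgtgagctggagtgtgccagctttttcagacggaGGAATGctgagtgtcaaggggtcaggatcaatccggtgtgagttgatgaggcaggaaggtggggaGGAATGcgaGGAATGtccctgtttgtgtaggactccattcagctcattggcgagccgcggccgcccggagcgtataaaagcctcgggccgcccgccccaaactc
AMOTL2, chr3:134374474-134374553, minus strand: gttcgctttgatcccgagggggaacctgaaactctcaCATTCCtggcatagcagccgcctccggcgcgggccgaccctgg
LATS2, chr13:21061566-21061645, minus strand: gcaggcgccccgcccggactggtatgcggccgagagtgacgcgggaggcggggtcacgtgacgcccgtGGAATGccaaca
AJUBA, chr14:22976859-22976938, minus strand: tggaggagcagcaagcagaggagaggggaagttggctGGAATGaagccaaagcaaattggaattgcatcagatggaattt
YAP1, chr11:102110248-102110327, plus strand: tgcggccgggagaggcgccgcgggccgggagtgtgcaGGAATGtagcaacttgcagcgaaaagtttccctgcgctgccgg
In CTGF the word occurred 3 times, beginning 169, 104 and 95 bases before the gene start, so that the last 2 copies began 9 bases apart. A TATAAA word followed 32 bases before the start, and LATS1 was the only other member with that word, in 1 of its 2 windows. In all 35116 windows, 14.0% held the word at least once, 0.128% held it 3 times or more, and 7.33% held TATAAA on the strand of the gene. Of 8 members with a window, 5 held the word in at least 1 window. Of 15 genes with a window in the published target set described further on, 8 did, with CTGF, LATS2 and AMOTL2 in both counts. Counted by gene in the same way, the share was 15.3% of 11197 tested genes with a window. AMOTL2 and AJUBA have 2 windows each, and the word was in the second of them. LATS2 has it 10 bases after its start. WWTR1, LATS1 and AMOTL1 did not have these letters in their windows, and no window was used for TEAD1 and CYR61. The AP-1 word TGANTCA, which is its own reverse complement, was in 1 of 2 windows of LATS1 and in 7.71% of all windows. No member window with the TEAD word held it. Among 11197 tested genes with a window, the TEAD word was found for 16.5% of genes called lower in Set7KD, 15.1% of genes called higher and 14.9% of genes not called. These matches describe the letters only.

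Total gene counts ran from 16385878 to 16953331 per library, so that 1 count was worth 0.0585 to 0.0618 CPM (counts per 1000000, scaled by TMM). SETD7 fell from 178 ± 2.18 to 32.8 ± 9.59 CPM (mean ± SD, n = 3 each), with a log2 fold change of -2.44 ± 0.21 (standard error) and an edgeR adjusted p of 0.000927. Of the endothelial markers that define the line, CDH5 stood at 206 CPM and VWF at 9.70 CPM in NTC. No row was found for PECAM1 and CLDN5. Libraries with the same replicate number deviated together, so counts and calls that a fit with that number as a block changed are given beside them. In bulk RNA, fewer cells of a type and less RNA per cell cannot be told apart.

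Both coactivator genes fell in Set7KD, YAP1 by 32.4% and WWTR1 by 23.6%. TEAD1 and LATS2 rose by 12.8% and 17.6%, and both secreted targets were lower in every replicate pair. Among the 10 members, 4 fell (YAP1, WWTR1, AMOTL2 and AJUBA), 2 rose and 4 did not pass at an edgeR adjusted p under 0.05. Over all 18482 genes tested, 18.6% were called lower and 17.6% higher. Read against that background of 36.2% called in either direction, the 6 calls of 10 members are a description of these genes. The 3 libraries of each group did not overlap for 6 members, 4 lower (YAP1, WWTR1, CYR61 and AJUBA) and 2 higher (TEAD1 and LATS2), beside 47.4% of all genes, 24.1% lower and 23.3% higher. With the replicate block CTGF and CYR61 also fell, which made 6 lower and 2 higher members, beside 22.1% and 20.7% of all genes (42.8% in either direction). The median log2 fold change of the members was -0.29, and that of all genes tested -0.01.

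**Figure D1:**
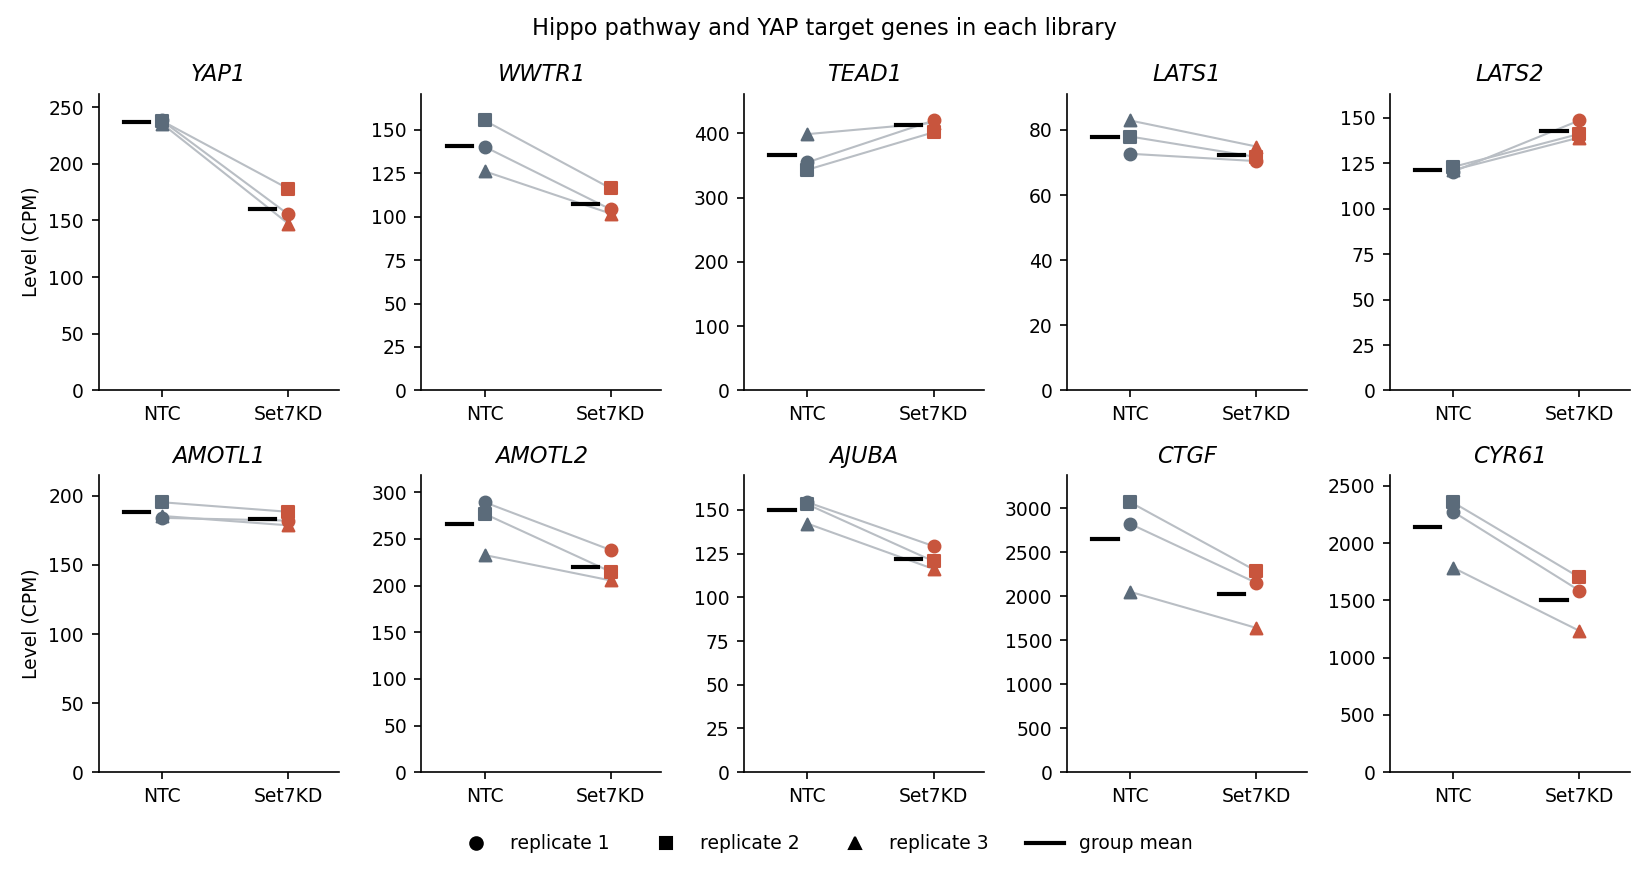
Level of each gene in CPM (y axis, from 0) in the 3 NTC and 3 Set7KD libraries; symbols mark the replicate number, grey lines join equal numbers and black bars are group means. YAP1 was 235 to 238 CPM in NTC and 147 to 178 CPM in Set7KD, while CTGF and CYR61 were lowest in replicate 3 of both groups.

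YAP1, the coactivator that gives the pathway its main output, had 238.1, 237.8 and 235.4 CPM in NTC replicates 1 to 3 and 155, 178 and 147 CPM in Set7KD replicates 1 to 3. The NTC values were almost equal and lay far above the highest Set7KD value, which was in replicate 2. YAP1 thus fell by 32.4%, a log2 fold change of -0.57 ± 0.06 (standard error; edgeR adjusted p = 8.41e-06). This call held in 18 of 18 alternatives. SETD7 itself was also highest in Set7KD replicate 2, at 43.8 CPM beside 27.8 and 26.7 CPM in replicates 1 and 3; whether the levels are related was not tested. WWTR1, which encodes the paralogous coactivator TAZ, had 140.2, 155 and 126 CPM in NTC and 104, 116 and 102 CPM in Set7KD. The groups did not overlap, although NTC replicate 3 came close to the highest Set7KD library. Its log2 fold change was -0.39 ± 0.08 (edgeR adjusted p = 0.00128), and the call held in 17 of 18 alternatives, the exception being a test against a minimum fold of 1.2. For single genes an exact two-sided permutation test of CPM cannot go below p = 0.1 with 3 libraries against 3, and YAP1, WWTR1, TEAD1, LATS2, CYR61 and AJUBA reached that value.

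The row named TAZ in the table is not WWTR1 but the gene with the identifier ENSG00000102125.11, which encodes the mitochondrial enzyme tafazzin. That row also fell, from 21.1 ± 1.26 to 15.6 ± 0.93 CPM (edgeR adjusted p = 0.0016), and a search by the protein's name would have returned it. WWTR1-AS1, an antisense gene whose exons share 795 bases with WWTR1 in GENCODE 29, fell from 8.73 ± 0.98 to 5.85 ± 0.37 CPM (edgeR adjusted p = 0.00259). RP11-864G5.3, antisense to YAP1 over 628 exon bases, fell from 37.2 ± 2.69 to 25.9 ± 1.78 CPM (adjusted p = 0.000126). The sources used here do not say whether counting used strand, so reads of these antisense partners and of YAP1 or WWTR1 cannot be told apart where they overlap.

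TEAD1, the transcription factor that tethers YAP and TAZ to DNA, went the other way. Its levels were 355, 343 and 399 CPM in NTC and 419.8, 402 and 416 CPM in Set7KD. The groups did not overlap, but NTC replicate 3 came close to the lowest Set7KD library. TEAD1 rose by a log2 fold change of 0.17 ± 0.06 (edgeR adjusted p = 0.0312). The call was lost without NTC replicate 1 (adjusted p = 0.14), NTC replicate 2 (0.134), Set7KD replicate 1 (0.116) or Set7KD replicate 3 (0.0697), and over all 18 alternatives the adjusted p lay between 0.00381 and 1. Set against TEAD1 within each library, the ratio of YAP1 counts to TEAD1 counts was 0.671, 0.693 and 0.59 in NTC and 0.37, 0.443 and 0.354 in Set7KD. This ratio does not depend on library scaling, and its mean in Set7KD was 0.597 of that in NTC, with no overlap. The ratio of WWTR1 to TEAD1 counts fell likewise, to 0.671 of its NTC mean, from 0.388 ± 0.068 to 0.261 ± 0.025. The ratio of YAP1 to WWTR1 counts overlapped between the groups, at 1.7, 1.53 and 1.87 in NTC and 1.49, 1.53 and 1.45 in Set7KD.

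**Figure D2:**
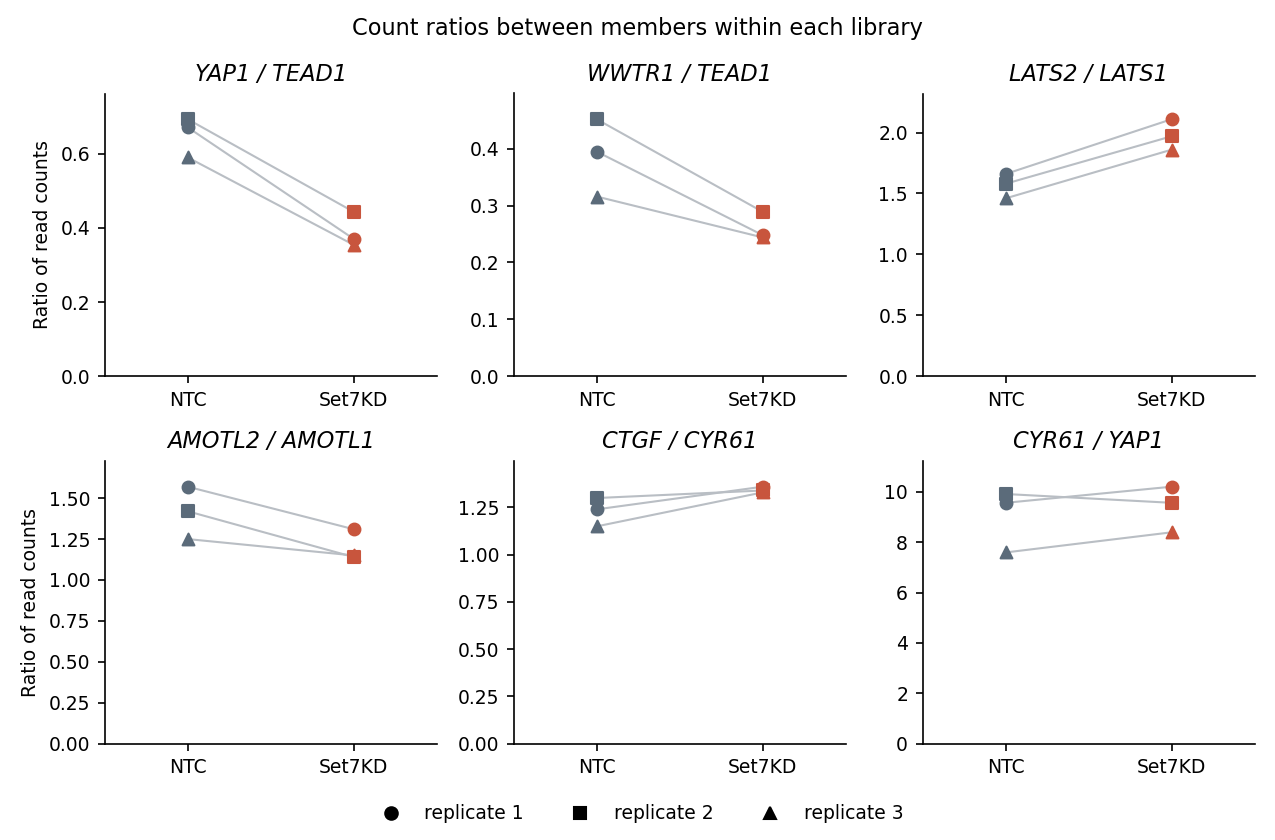
Ratio of the read counts of 2 members within each library (y axis, from 0) for NTC and Set7KD; symbols mark replicate numbers and grey lines join equal numbers. YAP1 over TEAD1 and WWTR1 over TEAD1 were lower in every Set7KD library and LATS2 over LATS1 was higher, whereas CYR61 over YAP1 overlapped between the groups.

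Of the kinases that phosphorylate YAP and TAZ, LATS2 rose and LATS1 did not pass. LATS2 had 120.4, 123 and 121 CPM in NTC and 149, 141 and 139 CPM in Set7KD. Its NTC values were close to each other and below every Set7KD value, with a log2 fold change of 0.23 ± 0.05 (edgeR adjusted p = 0.0024). Without both replicate 1 libraries the adjusted p of LATS2 was 0.108, and over the 18 alternatives it ran from 0.000622 to 0.891, the latter against a minimum fold of 1.2. LATS1 had 72.7, 78.0 and 82.9 CPM in NTC and 70.4, 71.7 and 74.9 CPM in Set7KD. These ranges overlapped, and the log2 fold change was -0.11 with a 95% interval of -0.24 to 0.02 (edgeR adjusted p = 0.194), which leaves room for a fall of that size. The ratio of LATS2 to LATS1 counts was 1.66, 1.58 and 1.46 in NTC and 2.11, 1.97 and 1.86 in Set7KD, higher in each Set7KD library than in any NTC library.

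The motins are scaffold proteins that bind YAP and hold it at junctions and actin filaments. AMOTL2 had 289, 277 and 233 CPM in NTC and 238, 215 and 206 CPM in Set7KD. NTC replicate 3 fell below Set7KD replicate 1, so the groups overlapped, yet AMOTL2 was lower in Set7KD within each replicate number. Its log2 fold change was -0.28 ± 0.08 (edgeR adjusted p = 0.0193). That call was lost without NTC replicate 1 (adjusted p = 0.0804), NTC replicate 2 (0.0572), Set7KD replicate 2 (0.101) or Set7KD replicate 3 (0.0696), and the adjusted p ranged from 0.000164 with the block to 0.57. AMOTL1, its paralog, had 184, 195 and 186 CPM in NTC and 182, 189 and 179 CPM in Set7KD, with a log2 fold change of -0.04, a 95% interval of -0.15 to 0.07 and an edgeR adjusted p of 0.57. RPL39P5, a pseudogene row that shares 187 exon bases with AMOTL2 on the same strand, had 15.2 ± 1.81 and 13.0 ± 1.52 CPM, so reads of AMOTL2 could have been split with it. RP11-856F16.2, which shares 496 exon bases with AMOTL1 on the opposite strand, stood at 10.9 ± 0.28 and 11.3 ± 0.23 CPM. AJUBA, a LIM protein that binds LATS kinases and restrains them, had 154, 153 and 142 CPM in NTC and 129, 121 and 116 CPM in Set7KD. The groups stood apart, AJUBA fell by 18.6% (log2 fold change -0.30 ± 0.06, edgeR adjusted p = 0.000894), and the call held in 17 of 18 alternatives, again except against a minimum fold of 1.2. RP11-298I3.5, which shares 50 exon bases with AJUBA on the same strand, stood at 27.7 ± 0.41 and 23.3 ± 0.94 CPM.

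The secreted targets were the most abundant members and depended most on the replicate number. CYR61 had 2276, 2358 and 1787 CPM in NTC and 1587, 1702 and 1235 CPM in Set7KD. The lowest control library, replicate 3, was still above the highest knockdown library. The log2 fold change was -0.51 ± 0.16 with an edgeR adjusted p of 0.0578, and with the replicate block it was -0.51 ± 0.04 with an adjusted p of 1.89e-07. CTGF had 2825, 3071 and 2052 CPM in NTC and 2153, 2288 and 1641 CPM in Set7KD. NTC replicate 3 lay below Set7KD replicates 1 and 2, so that the groups overlapped and CTGF did not pass, at -0.39 ± 0.21 (edgeR adjusted p = 0.234). With the block its log2 fold change was -0.38 ± 0.04 and the adjusted p 4.53e-06. Within the replicate numbers 1, 2 and 3 the log2 ratio of Set7KD to NTC was -0.39, -0.42 and -0.32 for CTGF and -0.52, -0.47 and -0.53 for CYR61.

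**Figure D3:**
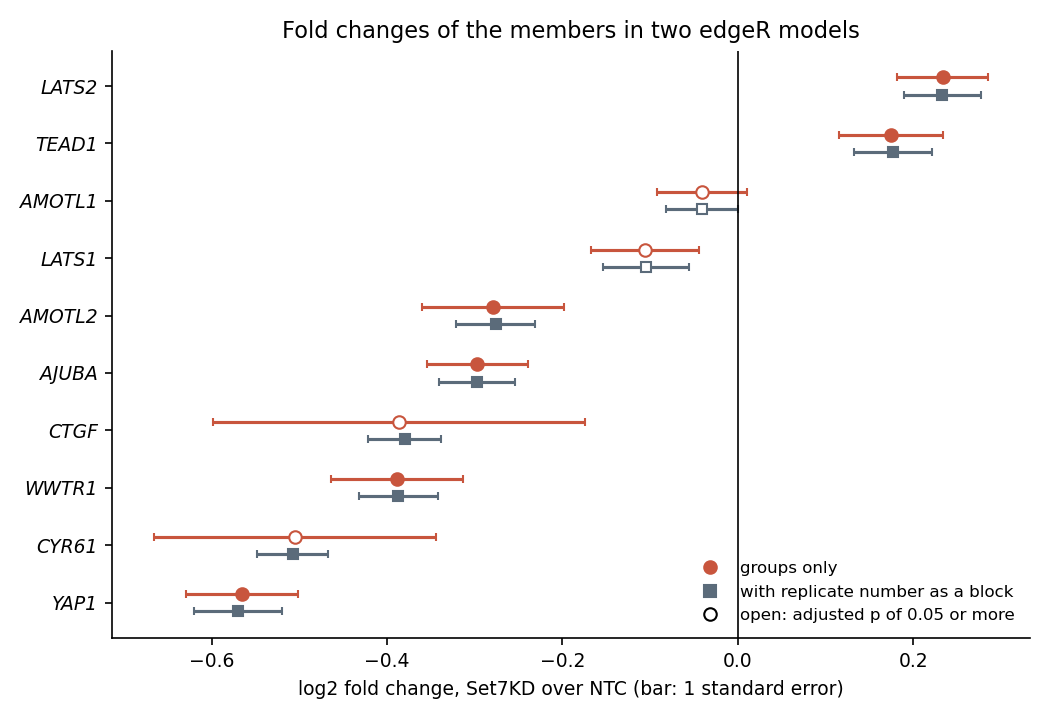
Log2 fold change of each gene in Set7KD over NTC (x axis; bars are 1 standard error) from edgeR fits without and with the replicate number as a block; filled symbols passed an adjusted p of 0.05. The estimates of CTGF and CYR61 were nearly equal in both fits, while their standard errors were 0.21 and 0.16 without the block and 0.04 for each with it.

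Replicate 3 was low for both secreted targets in both groups. Without NTC replicate 3 CTGF passed at -0.54 (edgeR adjusted p = 0.0134) and CYR61 at -0.62 (0.00359), and without both replicate 3 libraries they passed at -0.40 (0.000999) and -0.48 (0.000142). CYR61 also passed without Set7KD replicate 3, at -0.37 (0.0327), with DESeq2 (0.023) and with limma-voom (0.00577). Over the 18 alternatives CTGF was called in 3 and CYR61 in 8, and the adjusted p ran from 4.53e-06 to 0.604 and from 1.89e-07 to 0.233. The direction was downward in all of them. Both genes are also transcribed early after a stimulus, and the summed level of 27 immediate early genes moved alongside: it was 6907, 7770 and 4043 CPM in NTC and 3322, 3759 and 2337 CPM in Set7KD. Of those 27 genes, 5 fell and 0 rose by edgeR, beside 18.6% and 17.6% of all genes, so the count of 5 is near that share. With the block 24 fell and 0 rose, beside 22.1% and 20.7% of all genes. Without NTC replicate 3 the count of lower genes was 14 (3303 over all genes). DESeq2 called 0 higher and 15 lower, beside 2714 and 2688 over all genes. At an unadjusted p under 0.05 edgeR gave 0 higher and 13 lower, and the count over all genes at that threshold was not made. The genes with the smallest p were JUND, JUN, FOSL1 and KLF2, with JUN at 629, 675 and 417 CPM in NTC and 265, 263 and 205 CPM in Set7KD. Without any 1 of the other 5 libraries the count of lower genes was 1 or 2 (2545 to 3230 over all genes). JUN then had an edgeR adjusted p of 0.0505 to 0.0593. Their part in the CTGF and CYR61 result was not tested.

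Set against YAP1 in the same library, neither target separated the groups. The ratio of CYR61 to YAP1 counts was 9.56, 9.91 and 7.59 in NTC and 10.2, 9.56 and 8.39 in Set7KD, and that of CTGF to YAP1 was 11.2 ± 2.18 and 12.6 ± 1.37. Both overlapped between the groups. CTGF fell less than CYR61 in each replicate pair, so that the ratio of CTGF to CYR61 counts rose from 1.24, 1.3 and 1.15 in NTC to 1.36, 1.34 and 1.33 in Set7KD. RP11-69I8.3, an antisense gene whose exons share 195 bases with CTGF, fell from 22.8 ± 3.25 to 11.9 ± 1.99 CPM (log2 fold change -0.94 ± 0.13, edgeR adjusted p = 0.000126). The only other gene of the CCN family with a row, WISP3, had 1.2 ± 0.53 CPM in the controls, 0.72 ± 0.47 CPM after knockdown, and did not pass (edgeR adjusted p = 0.237; 0.0342 without Set7KD replicate 2).

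Per kilobase of merged exons in GENCODE 29, the secreted targets stood far above the other members. In NTC the order of the means, in CPM per kilobase, was CTGF at 1133 ± 227, CYR61 at 872 ± 126, AMOTL2 at 44.5 ± 4.97, YAP1 at 37.7 ± 0.24, TEAD1 at 35.6 ± 2.84, AJUBA at 25.1 ± 1.12, LATS2 at 21.8 ± 0.24, AMOTL1 at 18.8 ± 0.61, WWTR1 at 16.7 ± 1.74 and LATS1 at 9.01 ± 0.59. The ranges of CTGF and CYR61, of YAP1 and TEAD1, and of AMOTL1 and WWTR1 overlapped, and those of the other neighbours did not. In Set7KD the level of YAP1, 25.4 ± 2.53 CPM per kilobase, overlapped that of LATS2 at 25.6 ± 0.89, and TEAD1, at 40.1 ± 0.94, stood above YAP1 in every library. Exon lengths are those of all annotated transcripts together, so the order is approximate.

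A published set of 22 YAP and TAZ target genes did not move in a single direction. Of 21 genes with a row, 8 rose and 4 fell at an edgeR adjusted p under 0.05, with a median log2 fold change of 0.11. Leaving out the 4 genes of the set that are members (LATS2, AMOTL2, CTGF and CYR61), 7 of 17 rose and 3 fell, beside 17.6% and 18.6% of all genes. CCDC80, a secreted matrix protein, rose from 216 ± 29.2 to 538 ± 32.1 CPM, CRIM1, a membrane protein that binds growth factors, from 607 ± 29.1 to 828 ± 64.0 CPM, and MYOF, a membrane repair protein, from 360 ± 10.5 to 452 ± 28.0 CPM. RBMS3, an RNA-binding protein, fell from 45.2 ± 2.73 to 23.7 ± 1.15 CPM. These 4 were named for the smallest p of the set, so that their groups did not overlap adds nothing. The groups did not overlap for 47.4% of all genes.

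Further genes of the set are named after their values were seen. NUAK2, a kinase related to AMPK, fell from 51.4 ± 11.9 to 20.1 ± 3.66 CPM (edgeR adjusted p = 0.0098), and GADD45A, a stress-induced growth arrest gene, from 154 ± 22.2 to 89.9 ± 17.2 CPM (0.0296). GADD45A did not pass when NTC replicate 1 (0.0719), NTC replicate 2 (0.095) or Set7KD replicate 1 (0.0949) was left out. NUAK2 did not pass without both replicate 1 libraries (edgeR adjusted p = 0.0854) or both replicate 2 libraries (0.0691). IGFBP3, which binds insulin-like growth factors, had 24.7, 22.5 and 15.7 CPM in NTC and 81.5, 48.6 and 104.9 CPM in Set7KD. It rose by edgeR (log2 fold change 1.90 ± 0.38, adjusted p = 0.0223), but with the replicate block the adjusted p was 0.0839, and without any 1 of the NTC libraries or Set7KD replicate 1 it was 0.0684 to 0.0737. ANKRD1, a nuclear cofactor often used as a YAP readout, had 261 ± 44.5 and 247 ± 24.6 CPM (adjusted p = 0.711). Its log2 fold change was -0.08, or -0.22 without NTC replicate 3 (0.0332) and 0.005 without NTC replicate 1 (0.985). AXL, a receptor kinase, had 605 ± 62.8 and 555 ± 39.3 CPM (adjusted p = 0.218; 0.027 with the block and 0.0379 without NTC replicate 2). With the block 8 genes of the set rose and 8 fell, beside 20.7% and 22.1% of all genes. The lower ones then included CTGF, CYR61, AXL and ARHGEF17 (edgeR adjusted p = 0.0785 without and 0.0209 with the block). The higher ones included ASAP1 (0.0901 without and 0.0366 with it) and no longer IGFBP3. Without NTC replicate 3 the count of lower genes was also 8 (3303 over all genes), and without NTC replicate 1 it was 2 (2564). Without both replicate 1 libraries 2 genes of the set rose and 1 fell (1414 and 1562 over all genes).

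**Figure D4:**
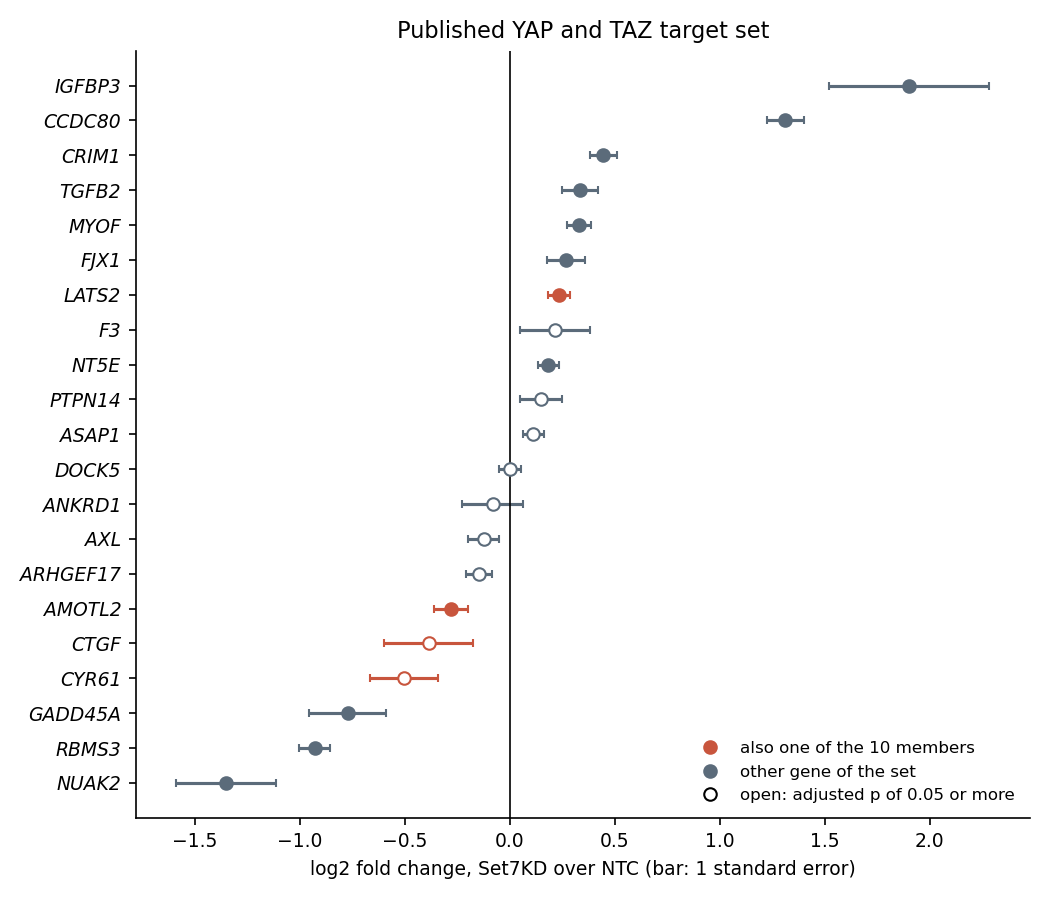
Log2 fold change in Set7KD over NTC (x axis; bars are 1 standard error) of the 21 measured genes of the published target set; filled symbols passed an edgeR adjusted p of 0.05 and red ones are among the 10 members. The set ran from -1.35 for NUAK2 to 1.90 for IGFBP3, with AMOTL2, CTGF and CYR61 below 0 and LATS2 above.

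Upstream of LATS stand kinases, adaptors and membrane scaffolds. Of 25 genes with a row, 4 rose, 6 fell and 15 did not pass, with log2 fold changes from -0.37 to 0.67 and a median of 0.06. These counts are near the 17.6% higher and 18.6% lower of all genes and so are no result about the list. With the replicate block 6 rose and 6 fell, beside 20.7% and 22.1% of all genes, NF2 and TAOK2 being added (edgeR adjusted p = 0.00965 and 0.0183; both named after their values were seen). TNIK, a kinase of the MAP4K group, had 39.4, 40.8 and 50.2 CPM in NTC and 70.4, 71.2 and 65.4 CPM in Set7KD and rose by 0.67 ± 0.08 on the log2 scale. STK38L and STK38, the NDR kinases related to LATS, rose by 0.53 ± 0.07 and 0.30 ± 0.05. TAOK3, which can activate the MST kinases, fell from 73.9 ± 3.18 to 59.9 ± 3.63 CPM. These 4 had edgeR adjusted p between 3.46e-05 and 0.00146. Without Set7KD replicate 1 the count of lower genes was 2, and without NTC replicate 1 or Set7KD replicate 3 it was 3. Over all genes the lower counts were 2545, 2564 and 2776 in these fits, beside 3440 with all libraries. Without NTC replicate 3 the count of higher genes was 7 (2992 over all genes, beside 3250 with all libraries).

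STRIPAK, a phosphatase complex that removes the activating phosphate from the MST kinases, gave 5 higher and 3 lower genes of 16, beside 17.6% and 18.6% of all genes. Without Set7KD replicate 1 the count of lower genes was 1 (2545 over all genes, beside 3440 with all libraries). With the replicate block 5 rose and 5 fell, beside 20.7% and 22.1%. STRN3, a striatin scaffold of the complex, had 72.0, 74.7 and 69.9 CPM in NTC and 36.2, 40.1 and 38.5 CPM in Set7KD. Its Set7KD values were close to each other and well below every NTC value, with a log2 fold change of -0.92 ± 0.06 (edgeR adjusted p = 1.21e-07). PPP2CA, a catalytic subunit, rose from 238 ± 4.05 to 308 ± 0.63 CPM, PPP2R1A, the phosphatase scaffold, from 176 ± 2.40 to 209.7 ± 16.9 CPM, and PDCD10, which links the striatins to kinases, from 40.6 ± 1.02 to 49.9 ± 2.45 CPM. The median log2 fold change of the list was -0.01.

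**Figure D5:**
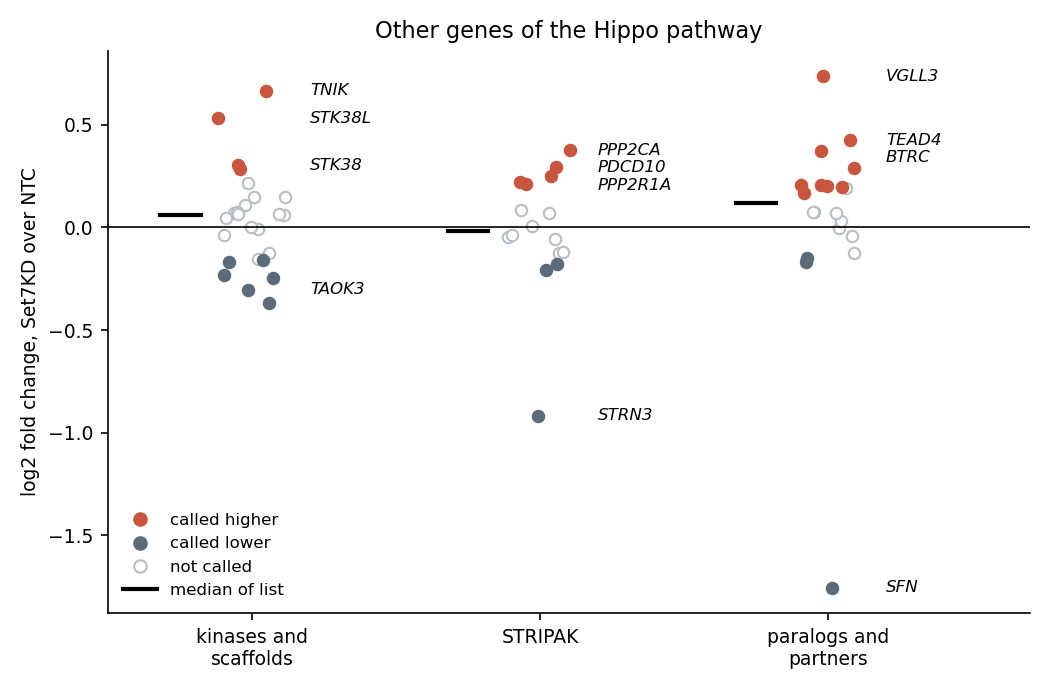
Log2 fold change in Set7KD over NTC (y axis) of single genes in 3 lists of other Hippo pathway genes; coloured points passed an edgeR adjusted p of 0.05, black bars are list medians and the 4 genes with the smallest p of each list are named. STRN3 at -0.92 and SFN at -1.75 lay furthest below 0, and VGLL3 at 0.74 furthest above.

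Among 20 paralogs and partners of the members, 9 rose and 3 fell, beside 17.6% and 18.6% of all genes, with a median log2 fold change of 0.12. The block added VGLL4, named after its values were seen (edgeR adjusted p = 0.0501 without and 0.0132 with it), to make 10 higher. VGLL3, a cofactor that binds TEAD proteins at the surface YAP uses, had 58.3, 58.6 and 65.4 CPM in NTC and 104, 100.7 and 98.8 CPM in Set7KD and rose by 0.74 ± 0.06 on the log2 scale (edgeR adjusted p = 4.1e-07). TEAD4, a paralog of TEAD1, rose from 45.5 ± 2.22 to 61.1 ± 4.40 CPM (adjusted p = 2e-04), whereas TEAD2 and TEAD3 had log2 fold changes of 0.00 and 0.03 and did not pass. BTRC, part of the ubiquitin ligase that degrades phosphorylated YAP and TAZ, rose from 36.0 ± 0.41 to 46.7 ± 2.77 CPM. SFN, an epithelial 14-3-3 protein, fell from 3.94 ± 0.69 to 1.16 ± 0.29 CPM, while YWHAQ, named after its values were seen as the 14-3-3 gene of the list with the highest log2 fold change, had 271 ± 11.5 and 331 ± 8.82 CPM. The count of lower genes was 1 with DESeq2 and without any 1 of NTC replicate 1, NTC replicate 3, Set7KD replicate 1 and Set7KD replicate 3. Over all genes it was 2688 with DESeq2 and 2545 to 3303 without those libraries, beside 3440 in the main fit.

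Markers of other cell types moved between the same groups. Of 9 fibroblast markers 5 rose and 0 fell, and 6 of 11 markers of mural cells (smooth muscle, pericytes) rose with 0 lower by edgeR. Over all genes 17.6% were called higher and 18.6% lower. With the replicate block 8 mural markers rose, beside 20.7% of all genes, SMTN and CSPG4 being added (edgeR adjusted p = 3.85e-06 and 5.61e-05). DESeq2 called 5 fibroblast and 7 mural markers higher and 0 of either list lower, beside 2714 higher and 2688 lower over all genes. At an unadjusted p under 0.05 edgeR gave 5 and 8 higher and 0 lower, and the count over all genes at that threshold was not made. The summed level of the fibroblast markers was 1566 to 2135 CPM in NTC and 3288 to 4261 CPM in Set7KD, and that of the smooth muscle markers 986 to 992 and 1571 to 1821 CPM. COL1A1 rose from 1555 ± 270 to 2861 ± 395 CPM and TAGLN from 96.3 ± 16.8 to 551 ± 116 CPM, while ACTA2 had 38.2 ± 4.58 and 43.9 ± 3.82 CPM and did not pass (edgeR adjusted p = 0.0999; 0.0234 without Set7KD replicate 2). The highest log2 fold change of the fibroblast markers was that of COL3A1, 2.73, from 12.8 CPM in NTC. Among the mural markers it was that of ACTG2, 4.79, from 0.94 CPM in NTC. LUM and PDGFRA, which mark fibroblasts, stood at 1.56 and 1.63 CPM in NTC and 1.98 and 2.92 CPM in Set7KD. PDGFRA passed (edgeR adjusted p = 0.00534, and 0.0887 without both replicate 1 libraries) and LUM did not (0.22). RGS5, a pericyte marker, stood at 4.41 and 4.20 CPM and did not pass (0.748). No row was found for DCN, FAP, DPT and DES. Of 12 endothelial markers 4 rose and 4 fell, beside 17.6% and 18.6% of all genes. With the block 5 fell, beside 22.1% of all genes, ERG being added at an edgeR adjusted p of 0.000178. CDH5, the endothelial cadherin, fell from 206 ± 32.1 to 119 ± 11.4 CPM, and TIE1, a receptor kinase, from 144 ± 6.74 to 87.3 ± 3.48 CPM. FLT1, a VEGF receptor, rose from 5.28 ± 0.85 to 9.44 ± 0.64 CPM, TEK, the angiopoietin receptor, from 45.1 ± 2.08 to 58.8 ± 6.41 CPM, and ENG, a TGF-beta coreceptor, from 144 ± 9.50 to 177 ± 11.8 CPM. Without both replicate 2 libraries CDH5 did not pass (edgeR adjusted p = 0.0564). Without both replicate 1 libraries TEK (0.0662) and ENG (0.0589) did not. CYR61, CTGF, CCDC80, IGFBP3 and VGLL3 are also expressed in fibroblasts and smooth muscle. The part of such cells or of a change in cell state in the values above was not tested.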

How the data were processed

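Poly-A RNA of 3 NTC and 3 Set7KD libraries was sequenced, and the authors deposited raw read counts per gene as whole numbers. Per the submitters' processing notes, the tools were BWA and bedtools and the build hg19; versions, the annotation and the use of strand are not given in the sources used here. Gene counts of the 6 libraries summed to 16385878 to 16953331. A row of reads outside genes, 55.6 to 56.1% of all reads, was left out of library sizes and tests.

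Genes were filtered with filterByExpr, scaled by TMM and tested with edgeR 4.0.16 (quasi-likelihood, robust), both groups in 1 fit and no covariate, with Benjamini-Hochberg adjustment over 18482 genes. A gene was called at an adjusted p under 0.05, and standard errors are the log2 fold change over the root of F. The labels do not say whether replicates were separate transductions, so p-values measure only the spread between these libraries. No libraries agreed within sampling noise: chi-square per degree of freedom within groups was 2.98 to 9.85. The replicate numbers come from the titles. They were taken to pair libraries, since deviations from group means over 11151 genes correlated at 0.302, 0.419 and 0.34 between equal numbers and at -0.358 to -0.038 otherwise.

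The 10 members and the gene lists were chosen with earlier results of these data known. In addition to the members, the 4 genes with the smallest p of each pathway, target and immediate early list are named, with a few cell type markers; exceptions are stated. The 18 alternatives were RLE and upper-quartile scaling, no filter, at least 50 counts, a replicate block, DESeq2 1.42.0, limma-voom 3.58.1, an adjusted p under 0.01, a minimum fold of 1.2, and leaving out each library or each replicate number. RefSeq windows (GRCh38.p14) and GENCODE 29 exon lengths were matched by symbol and by Ensembl identifier.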

Additional observations from a re-analysis of the deposited data

How the results depend on the processing

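Over 60 genes picked for this count and 18 alternatives, 968 values kept direction and call, 87 lost the call, 18 gained it and 5 changed direction. The 60 do not hold every gene named above. Many of them were picked for a small p in the main fit, so the 968 is no measure of how stable calls are in general. At an adjusted p under 0.01, 2103 genes were higher and 2197 lower, among them 1 higher member, and 2 genes of the 22-gene set were lower. Against a minimum fold of 1.2, 903 were higher and 1314 lower, with 0 higher and 1 lower member (YAP1) and 2 higher and 2 lower genes of the 22-gene set. Leaving out a library or a replicate number gave 1414 to 3214 higher and 1562 to 3303 lower genes, 0 to 2 higher members, and 2 to 8 higher and 1 to 8 lower genes of the set; the lowest counts of all genes came without both replicate 1 libraries. Fewer libraries entered these fits. Without both replicate 1 libraries MYOF, PDCD10, PPP2R1A and WWTR1-AS1 were among the genes that lost the call (edgeR adjusted p = 0.0505 to 0.0766). The fit with replicate numbers as a block gave 3826 higher and 4090 lower genes, 6 lower members and 8 lower genes of the set. It changed the call of 4 of the 60 genes: CTGF, CYR61 and AXL gained it and IGFBP3 lost it. Outside the 60, NF2, TAOK2, VGLL4, ASAP1, ARHGEF17, SMTN, CSPG4 and ERG are the genes named above that gained it too. Genes not named gained it as well: lower immediate early genes went from 5 to 24 and lower STRIPAK genes from 3 to 5. The log2 fold change of ANKRD1 ran from -0.274 (without both replicate 3 libraries, adjusted p = 0.00664 by edgeR) to 0.048 over the fits with libraries left out, and that of VWF from -0.115 to 0.205; the cause was not tested. No member changed direction in any of the 18 alternatives. The median log2 fold change of all genes stayed between -0.01 and 0.005. The member with the fewest reads, LATS1, had at least 1160 in each library.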
